A study of Astyanax mexicanus with 18 samples.

Results

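Pachón cavefish are an eyeless, cave-dwelling population of the Mexican tetra, Astyanax mexicanus, and the response of their liver to a meal is described here across all genes. The comparison took 6 of the 18 samples in the series, chosen by the population and treatment recorded for each RNA-seq library: 3 liver libraries from refed Pachón fish and 3 from starved Pachón fish. The labels do not say whether a library holds the liver of 1 fish, and each library is called a liver in what follows. The refed fish were 4 months old, had fasted for 4 days, were given 10 mg of the commercial feed Gemma and were dissected 3 hours afterwards. The starved fish were of the same age and population, went through the same 4 days without food and were dissected without that meal. All of these fish had been laboratory raised and accustomed to the same feed before the fast. Another 6 RNA-seq libraries, 3 from refed and 3 from starved surface fish (the eyed river form of the species, same age, fast and meal), enter only where the responses of the cave and river forms are compared, and the ChIP-seq libraries are not analysed here. The table lists 27420 genes. A gene was tested when it reached 1 TPM in 3 or more of the 6 Pachón libraries, which left 11987 genes, 9521 of them with a symbol, while 5224 genes were listed at 0 in all 6.

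In vertebrate liver, insulin released after a meal acts through its receptor and the IRS adaptor proteins to keep FOXO transcription factors out of the nucleus and to switch on glucose use and fatty acid synthesis. Insulin and amino acids together activate mTORC1, the kinase complex that drives ribosome production and protein synthesis and holds back autophagy, the digestion of a cell's own contents. During a fast the balance turns round: the liver oxidises fatty acids, exports glucose, and lives partly on its own protein and membranes. Cave populations of this species are known for storing large amounts of fat and for surviving long periods without food.

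Levels are given in TPM (transcripts per 1000000), a length-corrected share of each library, in the order of replicates 1, 2 and 3. Fold changes are refed minus starved differences of log2(TPM + 1), with their standard error from the fit over 3 refed and 3 starved libraries. Adding 1 TPM understates the change of genes with low levels. A gene is said to have risen or fallen when its p from limma, adjusted by the Benjamini-Hochberg method over all 11987 genes, was under 0.05. TPM keep no record of sequencing depth, so the depth of these libraries is unknown.

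The 2 states separated cleanly in the whole transcriptome. Pearson correlations of log2(TPM + 1) ran between 0.955 and 0.973 for libraries of the same state and between 0.814 and 0.912 for libraries of different states. The first principal component carried 72% of the variance and placed the refed livers at -73.7, -45.1 and -40.4, with the starved livers at 58.6, 44.2 and 56.4. Refed replicate 1 lay farthest out. It was the highest refed library for 65.3% of the genes that rose and the lowest for 65.7% of those that fell, so values without it are given wherever they matter. fabp10a, the liver fatty acid binding protein, was the most abundant transcript in all 6 livers, and the 100 most abundant genes of each library took 59.5% to 60.0% of the transcripts in refed livers and 61.6% to 64.3% in starved livers. Summed TPM of 19 hepatocyte markers were 246687, 216721 and 201897 in refed livers and 200473, 246554 and 235526 in starved livers, with no marker at 0 throughout.

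Markers of other cell types were detected too. Summed endothelial markers (12 genes, none at 0) were 40.9, 65.2 and 50.6 TPM in refed livers against 39.3, 36.3 and 40.5 TPM in starved livers, and neutrophil markers (12 genes, 1 at 0) 56.4, 79.3 and 73.3 TPM against 54.9, 54.3 and 50.5 TPM. Of 8 endothelial markers tested 3 rose and none fell (1 and 2 after median-of-ratios scaling), 4 differences were positive and 4 negative, and the median was -0.01. The markers that rose were tek, pecam1 and kdrl, by 0.64 to 1.01, but each call was lost when a single library was left out, and of these only tek was called after median-of-ratios scaling. Cholangiocyte markers (9 genes, none at 0) summed to 583, 384 and 511 TPM in refed livers and to 627, 746 and 642 TPM in starved livers. Of the 5 tested none was called (1 lower after median-of-ratios scaling), 3 differences were positive and 2 negative, and the median was 0.18. Only 2 neutrophil markers were tested, and none was called. Markers of skeletal muscle (3 of 14 at 0) and of the endocrine pancreas (4 of 11 at 0) stayed at or under 3.30 TPM in total in every liver. No member of either list was tested, but their sums did not overlap. Muscle had 1.09, 1.16 and 0.99 TPM in refed livers against 1.32, 1.3 and 1.61 TPM. Endocrine pancreas had 1.68, 3.1 and 3.3 TPM against 1.63, 1.43 and 0.78 TPM. Erythrocyte, macrophage, stellate cell, adipocyte, exocrine pancreas, intestine, lymphocyte and ovary sums overlapped between the states. The intestine sums overlapped only at 36.87 TPM (refed replicate 1) and 36.82 TPM (starved replicate 3). Of 15 tested erythrocyte markers 12 differences were negative and 3 positive. The part of other cell types in the results was not tested, and in bulk tissue fewer cells of a type and less RNA per cell cannot be told apart.

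A meal 3 hours earlier was associated with a different level of a large part of the liver transcriptome. In all 4766 genes (39.8% of those tested) were called: 3509 (29.3%) rose and 1257 (10.5%) fell. Of these, 2102 rose and 693 fell by at least 2-fold, 477 rose and 118 fell by at least 4-fold, and 93 rose and 24 fell by at least 8-fold. The libraries of the 2 states did not overlap for 53.8% of all tested genes, with refed livers higher for 38% and lower for 15.7%. Leaving out 1 library left 3502 to 4046 calls, and the lower calls were 818 without starved replicate 2 and 812 without starved replicate 3.

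The surplus of rises depended on how the libraries were scaled. The median change over all tested genes was 0.21 in TPM, 0.02 after median-of-ratios scaling (which sets the typical gene to no change) and -0.04 after quantile normalization. With median-of-ratios scaling 4571 genes (38.1%) were called, 2631 (21.9%) of them higher and 1940 (16.2%) lower, so that rises made up 57.6% of calls instead of 73.6%, and with quantile normalization they made up 51.4%. No gene called in TPM was called in the opposite direction after median-of-ratios scaling: 878 of the higher calls were lost and none of the 1257 lower calls. The skew also depended on abundance. Genes of 20 to 100 TPM had a median change of 0.41, with 652 of 1766 higher and 168 lower, and genes of 100 TPM or more a median of -0.05, with 120 of 794 higher and 60 lower. After median-of-ratios scaling the most abundant genes turned, with 68 higher and 119 lower. Counts of a gene list are therefore given in TPM first and after median-of-ratios scaling second, and each list median is to be read against 0.21.

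**Figure D1:**
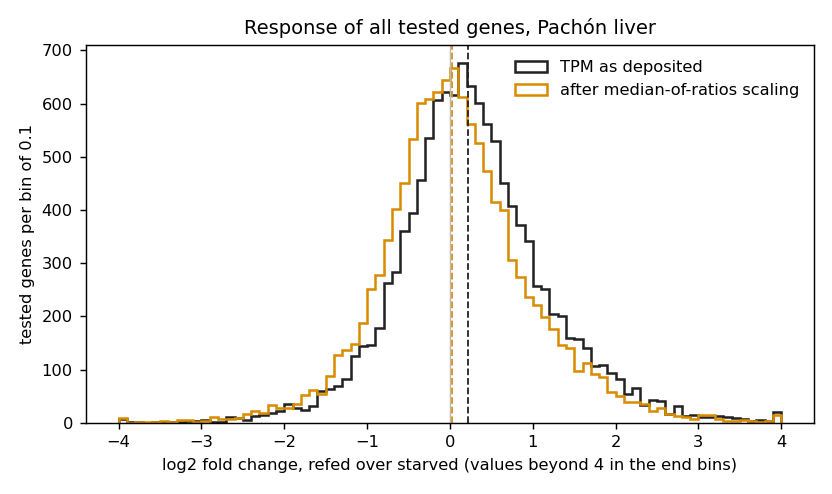
Distribution of the log2 fold change, refed minus starved, of 11987 genes in Pachón liver, in TPM and after median-of-ratios scaling, with the median of each as a dashed line. The whole distribution moves left by about the difference between the medians, 0.21 and 0.02, while both tails remain.

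Seen by gene list, the response had 3 blocks. Rises outnumbered falls by a wide margin in the lists for ribosome production, aminoacyl-tRNA synthetases, mitochondrial import and mitochondrial ribosomes, protein folding, the proteasome, amino acid breakdown and fatty acid synthesis. A surplus of rises was not peculiar to these lists. Across the whole comparison 29.3% of genes rose and 10.5% fell (21.9% and 16.2% after median-of-ratios scaling). The share called in the rising lists ran from 50.0% for cytosolic chaperones to 89.4% for mitochondrial ribosomal proteins. Falls outnumbered rises among insulin and growth hormone signalling genes, mTORC1 and AMPK genes, immediate early genes, fatty acid oxidation genes and autophagy genes. For fatty acid oxidation this did not hold without refed replicate 2 or 3. In these lists, in the order named, the share called was 40.0%, 48.4%, 36.6%, 32.7% and 49.4%. Of all tested genes 39.8% were called and 10.5% fell. Cytosolic ribosomal proteins, complement and coagulation factors and most plasma carriers had few calls or none. The strip plot of list members shows these blocks, and the sections that follow take them in turn.

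**Figure D2:**
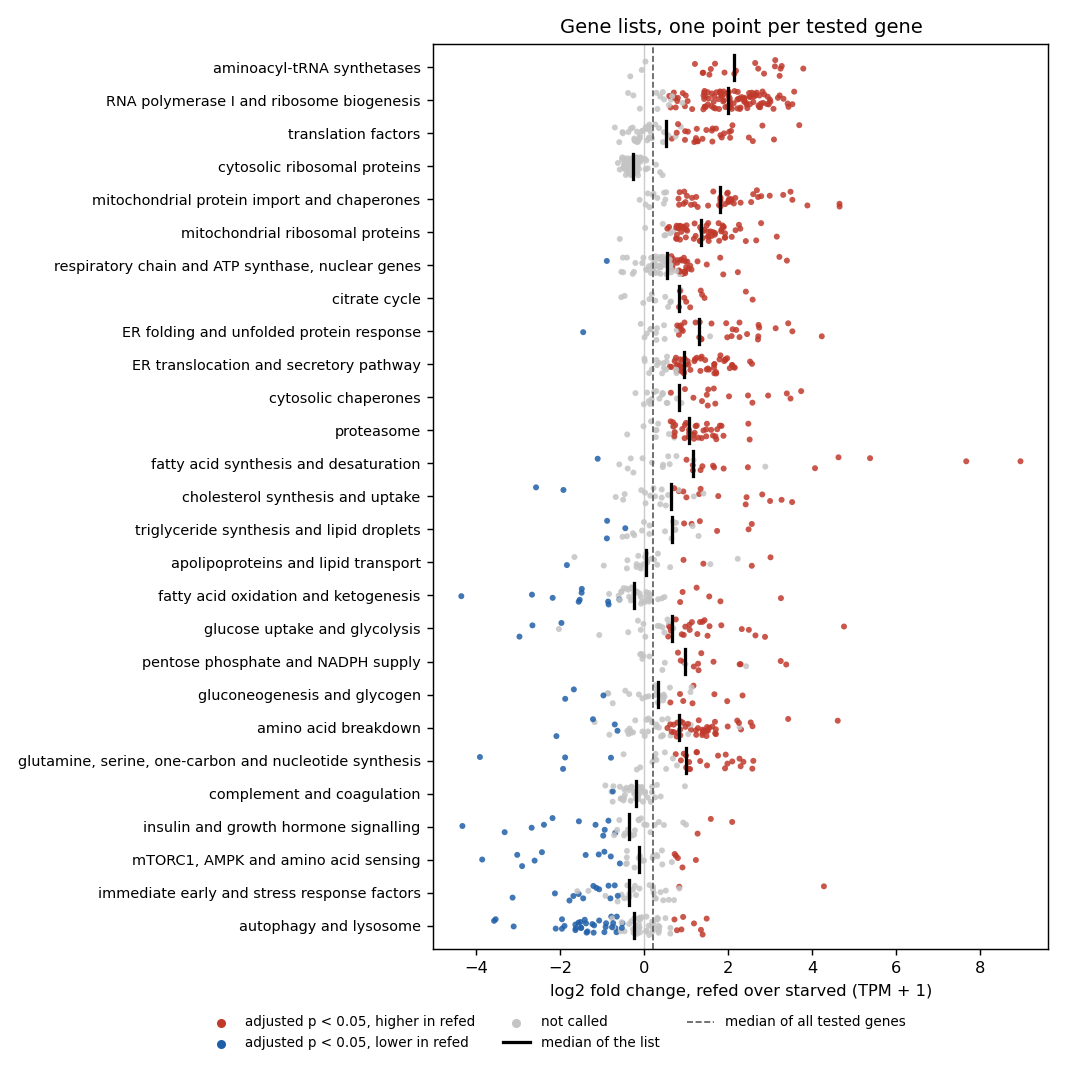
Log2 fold change (refed minus starved, TPM) of every tested member of 27 gene lists in Pachón liver, 1 point per gene, with the median of each list as a bar and the median of all tested genes as a vertical line. Ribosome biogenesis (median 1.99) and aminoacyl-tRNA synthetases (median 2.14) lie almost wholly to the right, cytosolic ribosomal proteins (median -0.26) are packed near 0, and autophagy genes (median -0.25) lean left.

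Insulin and growth hormone signalling genes fell more often than they rose. Of the 35 tested genes of this list 11 fell and 3 rose (14 and 1 after median-of-ratios scaling). The 40.0% called was close to the 39.8% of all genes, of which 10.5% fell and 29.3% rose. The number that fell was 7 without starved replicate 2 or 3, and the number that rose was 1 without refed replicate 2 or starved replicate 1 or 3. foxo1a, the transcription factor that insulin inactivates, had 0.47, 0.18 and 0.35 TPM in refed livers and 16.6, 33.4 and 30.4 TPM in starved livers. It fell by 4.33 ± 0.27 on the log2 scale (adjusted p = 0.000236). No other gene with a symbol was at or under 0.5 TPM in every refed liver and at or above 5 TPM in every starved one. foxo1a passed the level filter only through the starved livers, so its test is no separate support for the fall. Its relative foxo3a moved the other way: 10.9, 5.83 and 5.24 TPM in refed livers against 1.11, 0.77 and 0.75 TPM in starved livers, a rise of 2.09 ± 0.26 (adjusted p = 0.00094). The more abundant b copy of foxo3a was not called, with means of 31.96 TPM in refed and 38.07 TPM in starved livers (-0.3 ± 0.465). The b copy of foxo1a was not called either, with means of 2.16 TPM in refed and 1.86 TPM in starved livers.

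Other members of the list that fell included socs2, igfbp1a and irs2b. socs2, an inhibitor of growth hormone receptor signalling, had 3.63, 9.58 and 7.53 TPM in refed livers and 95.1, 70.2 and 60.0 TPM in starved livers, a difference of -3.32 ± 0.34 (adjusted p = 0.000487). igfbp1a, a secreted protein that binds insulin-like growth factors and is high in fasting, had 38.5, 159 and 96.9 TPM against 426, 624 and 610.5 TPM, a difference of -2.68 ± 0.48 (adjusted p = 0.00379). No refed liver reached the lowest starved liver for either gene. irs2b, an adaptor of the insulin receptor, had 0.61, 6.94 and 2.89 TPM in refed livers and 18.4, 17.5 and 18.8 TPM in starved livers. Its fall of 2.39 ± 0.50 was 1.79 without refed replicate 1. Of the receptors, insrb, the less abundant insulin receptor copy, had 1.53, 2.07 and 1.48 TPM in refed livers and 2.63, 3.49 and 3.96 TPM in starved livers. It fell by 0.69 ± 0.19 (adjusted p = 0.0206), a call lost without refed replicate 1 or 3 or starved replicate 2 or 3. Its copy insra differed by -0.46 ± 0.22 (adjusted p = 0.14) and the growth hormone receptor ghra by -0.65 ± 0.23 (adjusted p = 0.0538), and both were called lower after median-of-ratios scaling (adjusted p = 0.0439 and 0.0183).

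Among 31 mTORC1, AMPK and amino acid sensing genes, 10 fell and 5 rose (11 and 2 after median-of-ratios scaling), 48.4% called against 39.8% of all genes. The rises were 2 or 3 without any 1 of the refed libraries or starved replicate 3. eif4ebp3, a repressor of cap-dependent translation, had 8.95, 3.83 and 6.50 TPM in refed livers against 18.4, 51.6 and 79.1 TPM in starved livers (-2.61 ± 0.51, adjusted p = 0.00567). prkaa1, a catalytic subunit of the energy sensor AMPK, had 8.96, 13.8 and 13.6 TPM against 45.8, 23.1 and 33.6 TPM and fell by 1.39 ± 0.29. tsc2, which holds mTORC1 down, had 0.79, 0.71 and 0.90 TPM in refed livers and 2.44, 2.49 and 2.48 TPM in starved livers, with no overlap and very little spread. It passed the level filter only through the starved livers, so this gap is no separate support for a fall. ypel3 fell by 2.91 ± 0.45 (adjusted p = 0.00194).

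Fatty acid synthesis gave the largest single rises. Of 28 tested genes in this list 14 rose and 1 fell (14 and 2 after median-of-ratios scaling), with a median of 1.16. That was 53.6% called, against 39.8% of all genes. scd, the desaturase that makes monounsaturated fatty acids, had 7584, 1554 and 1097 TPM in refed livers against 0.36, 19.8 and 2.74 TPM in starved livers. fasn, fatty acid synthase, had 2516, 472 and 812 TPM in refed livers against 1.41, 8.33 and 4.15 TPM in starved livers. The states were far apart for both genes, and refed replicate 1 held the most of each. The rises were 8.96 ± 1.04 for scd and 7.67 ± 0.67 for fasn, and became 8.11 and 6.99 without refed replicate 1; for scd they became 8.06 without starved replicate 1 and 10.02 without starved replicate 2.

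Enzymes that elongate fatty acids followed. elovl2, which elongates polyunsaturated fatty acids, had 42.3, 38.5 and 26.5 TPM in refed livers and 1.18, 0.96 and 1.35 TPM in starved livers (4.07 ± 0.22, adjusted p = 0.000236), a change with far less spread than those of scd and fasn. tecrb, the last enzyme of the elongation cycle, had 41.2, 23.2 and 23.1 TPM against 3.33, 5.88 and 3.87 TPM (2.47 ± 0.29). ELOVL6, which extends palmitate, had 477, 111 and 167 TPM in refed livers and 68.1, 53.3 and 45.9 TPM in starved livers. Its rise of 1.89 ± 0.50 was 1.29 without refed replicate 1 and was no longer called without starved replicate 2 or without starved replicate 3. The gene that fell was acacb, the acetyl-CoA carboxylase whose product restrains fatty acid entry into mitochondria, at 2.67, 1.44 and 1.46 TPM in refed livers and 6.60, 4.58 and 4.20 TPM in starved livers (-1.11 ± 0.23, adjusted p = 0.00776).

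Summed over all members, fatty acid synthesis transcripts made up 38191, 7977 and 9364 TPM in refed livers and 858, 1273 and 1501 TPM in starved livers. The sum was largest in refed replicate 1, and much of it was thrsp, a small protein that promotes lipogenesis. thrsp alone had 25429, 4553 and 6172 TPM in refed livers against 79.2, 639 and 928 TPM in starved livers. Its rise of 4.62 ± 0.97 was 3.87 without refed replicate 1, 3.54 without starved replicate 1 and 5.30 without starved replicate 3.

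Triglyceride and lipid droplet genes were called about as often as genes at large. Of 26 such genes 6 rose and 3 fell, the same counts as after median-of-ratios scaling and 34.6% called in all against 39.8% of all genes, and without refed replicate 1, refed replicate 3 or starved replicate 3 a single fall was left. cideb, a lipid droplet protein, had 136, 210.4 and 179 TPM in refed livers and 287, 322 and 351 TPM in starved livers, and ABHD5, the coactivator of the droplet lipase ATGL, had 4.39, 5.9 and 4.27 TPM against 10.7, 9.68 and 8.96 TPM. They fell by 0.88 ± 0.23 and 0.89 ± 0.18, and the call of cideb was lost without refed replicate 1 or 3 or starved replicate 3. mttp, which loads lipid onto apolipoprotein B, had 150.0, 80.1 and 91.0 TPM in refed livers against 25.7, 15.1 and 11.8 TPM in starved livers (2.56 ± 0.34, adjusted p = 0.00117). The carrier itself, apobb.1, differed by -0.41 ± 0.29 (adjusted p = 0.291). Of 25 apolipoprotein and transport genes 4 rose and 1 fell (3 and 1 after median-of-ratios scaling), a smaller share than the 39.8% of all genes. The fall was lost without any 1 of the starved libraries.

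A secreted inhibitor of lipoprotein lipase was low in refed livers. angptl4, which fasting is known to induce, had 0.11, 0.84 and 0.22 TPM in refed livers and 8.67, 2.16 and 2.75 TPM in starved livers, a fall of 1.84 ± 0.42 (adjusted p = 0.0104). The groups did not overlap. The gene passed the level filter only through the starved livers, so neither its call nor this gap is separate support for the fall.

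Cholesterol synthesis rose in part. Of 32 genes 13 rose and 2 fell (9 and 4 after median-of-ratios scaling), 46.9% called against 39.8% of all genes, of which 29.3% rose. The rises were 7 without starved replicate 1 or 2 and 8 without starved replicate 3, with 1 fall without starved replicate 2 or 3. idi1, which isomerises the isoprenoid building block, had 21.5, 8.39 and 8.46 TPM in refed livers and 1.38, 1.68 and 0.98 TPM in starved livers (2.44 ± 0.35, adjusted p = 0.00146). acat2, the cytosolic thiolase at the start of the pathway, had 81.2, 17.7 and 21.4 TPM against 1.61, 2.71 and 1.36 TPM, and its rise of 3.52 ± 0.53 was 2.85 without refed replicate 1. hmgcra, a copy of the rate-limiting reductase, was uneven in refed livers at 62.0, 1.68 and 5.07 TPM and close to absent in starved livers at 0.03, 0.11 and 0.00 TPM. Its rise of 3.27 ± 0.99 (adjusted p = 0.0322) was lost when any starved library was left out, and without a refed library it was not tested. hmgcra passed the level filter only through the refed livers. The b copy of this reductase rose too, with means of 10.58 TPM in refed and 3.63 TPM in starved livers (1.31 ± 0.19). Refed replicate 1 was the highest refed liver for idi1, acat2 and hmgcra.

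The regulators of cholesterol balance also moved. insig1, which retains SREBP in the endoplasmic reticulum, had 10.7, 10.7 and 13.2 TPM in refed livers and 37.8, 43.8 and 57.3 TPM in starved livers (-1.90 ± 0.22, adjusted p = 0.000734). srebf2, the transcription factor that insig1 restrains, had 23.4, 12.5 and 16.5 TPM against 6.05, 8.70 and 6.48 TPM (1.17 ± 0.26, adjusted p = 0.00963). soat2, which esterifies cholesterol for storage, had 9.02, 71.7 and 53.5 TPM in refed livers and 122, 195 and 347 TPM in starved livers. The groups did not overlap. It fell by 2.58 ± 0.73 and by 1.69 without refed replicate 1, and the call was lost without starved replicate 2 or 3.

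Fatty acid oxidation genes split. Of 49 tested 10 fell and 6 rose (16 and 6 after median-of-ratios scaling), 32.7% called against 39.8% of all genes. The falls were 5 without refed replicate 2 or 3 and 6 without starved replicate 2. Leaving out 1 library gave 5 to 8 rises, so falls did not outnumber rises without refed replicate 2 or 3. crot, the peroxisomal carnitine acyltransferase, had 6.07, 8.58 and 4.45 TPM in refed livers against 51.0, 41.1 and 42.6 TPM in starved livers (-2.67 ± 0.24, adjusted p = 0.000387). acadvl, the mitochondrial very-long-chain dehydrogenase, had 51.0, 50.8 and 40.8 TPM against 163, 122 and 121 TPM (-1.49 ± 0.22). cpt1aa, the carnitine palmitoyltransferase that admits fatty acids to mitochondria, had 7.35, 5.12 and 9.07 TPM in refed livers and 35.6, 16.2 and 19.0 TPM in starved livers (-1.54 ± 0.33, adjusted p = 0.00773), while its copy cpt1ab differed by -0.38 ± 0.57 (adjusted p = 0.63). acot8, a peroxisomal thioesterase, went up, with 63.0, 32.1 and 29.7 TPM in refed livers and 1.24, 6.96 and 3.19 TPM in starved livers (3.25 ± 0.48, adjusted p = 0.00162).

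**Figure D3:**
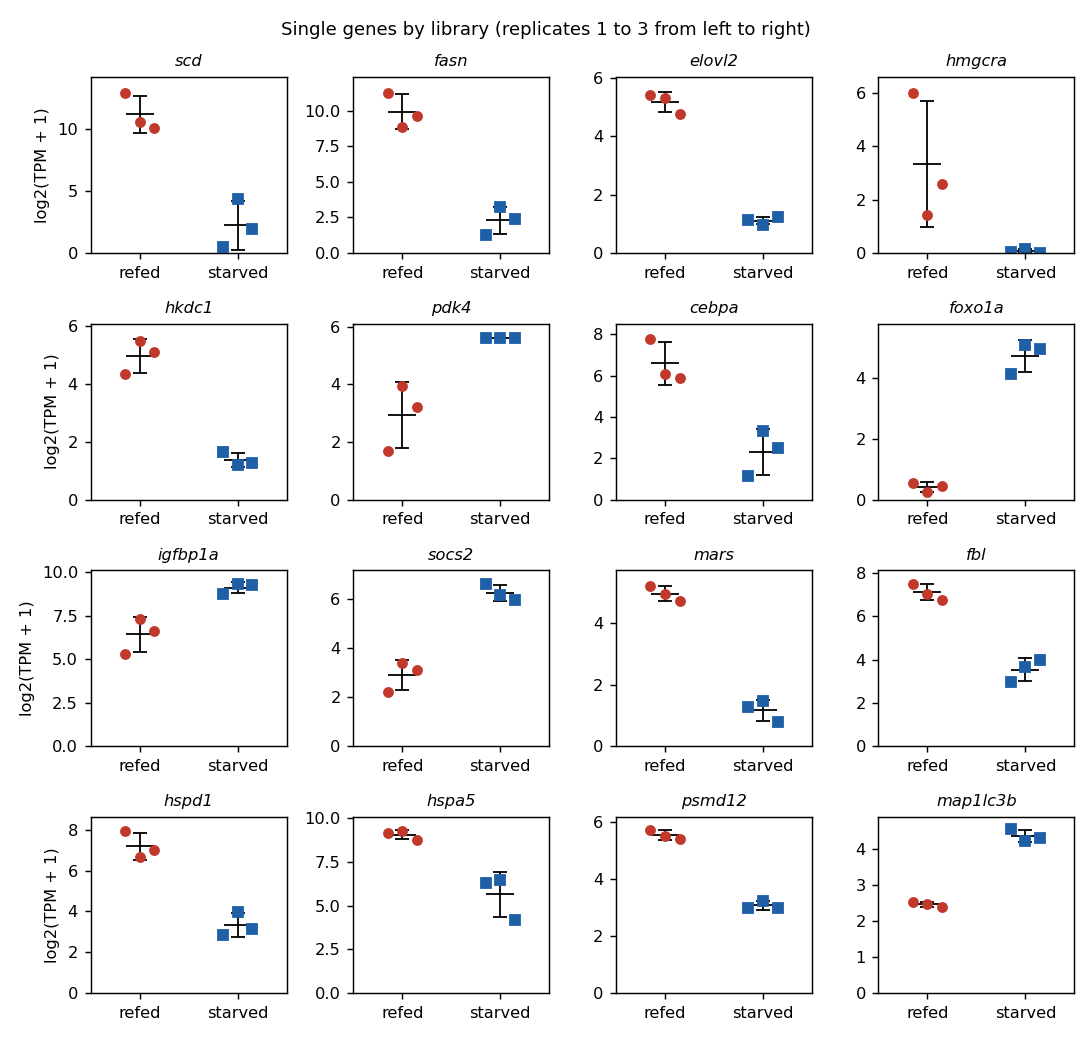
Log2(TPM + 1) of 16 genes in the 3 refed and 3 starved Pachón livers, refed on the left of each panel, 1 point per library with the mean and SD of the 3. The points of the states do not overlap in any of these panels, and the spread of refed livers is widest for hmgcra.

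Genes of glycolysis were mostly higher in refed livers, and kinases that block pyruvate oxidation were lower. Of 40 glucose uptake and glycolysis genes 23 rose and 3 fell (15 and 5 after median-of-ratios scaling). That was 65.0% called, against 39.8% of all genes, and 15 rose without refed replicate 1, refed replicate 2 or starved replicate 3. hkdc1, a hexokinase outside that list, had 19.0, 43.6 and 33.2 TPM in refed livers and 2.09, 1.3 and 1.39 TPM in starved livers (3.60 ± 0.31, adjusted p = 0.000344). pdk4 and pdk2a, kinases that inactivate the pyruvate dehydrogenase complex, were the mirror image. pdk4 had 2.24, 14.2 and 8.29 TPM in refed livers and 47.6, 48.1 and 47.6 TPM in starved livers, and pdk2a had 0.41, 1.93 and 2.36 TPM against 27.6, 8.76 and 23.0 TPM. They fell by 2.66 ± 0.50 and 2.97 ± 0.47, and pdk4 by 2.04 without refed replicate 1. dlat, the acetyltransferase subunit of the complex they act on, had 44.4, 20.04 and 15.8 TPM in refed livers against 2.97, 2.59 and 1.84 TPM in starved livers and rose by 2.88 ± 0.36.

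Among sugar transporters, slc2a5, a fructose carrier, fell by 1.97 ± 0.38, with 3.94, 9.48 and 11.2 TPM in refed livers and 46.1, 26.1 and 28.9 TPM in starved livers. slc2a2, the main liver glucose carrier, rose by 1.14 ± 0.33 (adjusted p = 0.0295), but its call was lost without refed replicate 2 or 3 or starved replicate 2 or 3 and after median-of-ratios scaling.

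Called genes of the pentose phosphate pathway and NADPH supply moved one way. Of 21 tested 12 rose and none fell in limma at adjusted p under 0.05 (11 and 0 after median-of-ratios scaling). That was 57.1% called, against 39.8% of all genes. pgls, a lactonase near the start of the pathway, was even, at 11.7, 10.6 and 9.92 TPM in refed livers against 2.77, 2.73 and 2.70 TPM in starved livers (1.65 ± 0.16, adjusted p = 0.000431).

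Gluconeogenesis and glycogen genes gave 8 rises and 3 falls of 31 (4 and 5 after median-of-ratios scaling), 35.5% called against 39.8% of all genes, and the rises were 4 or 5 without refed replicate 1 or 2 or starved replicate 2 or 3. ugp2a, which makes the UDP-glucose that glycogen is built from, had 131, 124 and 174 TPM in refed livers and 35.6, 44.0 and 27.8 TPM in starved livers (1.98 ± 0.24, adjusted p = 0.000926). gyg2, the glycogenin that primes new glycogen, had 9.07, 7.10 and 7.49 TPM against 32.2, 25.1 and 25.0 TPM and fell by 1.68 ± 0.20 (adjusted p = 0.000777). Gluconeogenic enzymes differed among themselves. fbp1a, a fructose-1,6-bisphosphatase, had 23.8, 19.5 and 19.02 TPM in refed livers and 5.46, 6.81 and 5.28 TPM in starved livers and rose by 1.67 ± 0.19 (adjusted p = 0.000688). Its far more abundant copy fbp1b was not called, at 2289, 3037 and 2501 TPM against 1318, 2353 and 2858 TPM (0.32 ± 0.31, adjusted p = 0.438). g6pca.2, a glucose-6-phosphatase that was not called in TPM, had 1285, 2592 and 2693 TPM in refed livers and 2989, 4435 and 4146 TPM in starved livers, without overlap (-0.87 ± 0.33, adjusted p = 0.0678; -1.12 and 0.0286 after median-of-ratios scaling). pck1, the carboxykinase, had 758, 76.1 and 330 TPM in refed livers and 151, 1262 and 596 TPM in starved livers, with overlap in both directions (-0.86 ± 0.96, adjusted p = 0.512), and the difference was 0.04 without refed replicate 2.

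Amino acid breakdown was among the longest one-sided lists, with 62.2% called against 39.8% of all genes. Of 74 genes 42 rose and 4 fell (29 and 7 after median-of-ratios scaling), with a median of 0.83, and the rises were 31 to 36 when 1 library was left out; the falls were 1 without refed replicate 1 or starved replicate 3 and 2 without refed replicate 3. fah, which completes tyrosine breakdown, had 395, 312 and 374 TPM in refed livers and 93.4, 89.1 and 86.4 TPM in starved livers (1.99 ± 0.20, adjusted p = 0.000456). cbsb, which draws homocysteine towards cysteine, had 118, 112 and 116 TPM against 18.1, 30.2 and 23.5 TPM (2.25 ± 0.23, adjusted p = 0.000486). bhmt, which turns homocysteine back into methionine, had 2432, 3609 and 2978 TPM in refed livers and 882, 1293 and 1039 TPM in starved livers (1.49 ± 0.24). The groups did not overlap for either gene. cbsa, the far more abundant copy of cbsb, was not called, at 2847, 2224 and 2443 TPM in refed livers and 2170, 3559 and 3120 TPM in starved livers (-0.21 ± 0.24, adjusted p = 0.519). ppm1k, the phosphatase that activates the branched-chain ketoacid dehydrogenase, had 9.20, 9.99 and 11.1 TPM in refed livers and 55.0, 38.02 and 47.0 TPM in starved livers, a fall of 2.09 ± 0.21.

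Each of 4 polyamine synthesis enzymes rose. odc1, ornithine decarboxylase, had 37.9, 7.76 and 13.9 TPM in refed livers and 0.48, 1.33 and 0.55 TPM in starved livers, a rise of 3.30 ± 0.50 that was 2.71 without refed replicate 1. amd1, which supplies the aminopropyl donor, had 11.5, 8.94 and 6.02 TPM against 2.14, 0.98 and 1.44 TPM. The spermidine and spermine synthases srm and sms rose by 1.4 ± 0.16 and 1.56 ± 0.19, and amd1 by 1.95 ± 0.27. These genes belong to a list of 16 urea cycle, arginine and polyamine genes of which 5 rose and none fell in limma (5 and 2 after median-of-ratios scaling), and 31.2% called is below the 39.8% of all genes. The polyamine enzymes were picked from that list after their values were seen.

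Nucleotide, serine, one-carbon and glutamine genes gave 22 rises and 4 falls of 37 (19 and 5 after median-of-ratios scaling). That was 70.3% called, against 39.8% of all genes, with 2 falls without starved replicate 2. prps1b, which makes the ribose donor of all nucleotides, had 26.8, 18.3 and 16.1 TPM in refed livers and 2.31, 2.79 and 2.28 TPM in starved livers (2.6 ± 0.22, adjusted p = 0.000344). ppat, which commits that donor to purines, had 27.8, 25.5 and 18.9 TPM against 6.81, 2.99 and 2.59 TPM (2.36 ± 0.32). Of 26 amino acid transporters 9 rose and 2 fell (8 and 3 after median-of-ratios scaling), 42.3% called against 39.8% of all genes, 5 rose without refed replicate 2 and the falls were 0 or 1 without any 1 library. slc7a2, a carrier of cationic amino acids, had 125, 70.7 and 79.7 TPM in refed livers and 22.9, 26.7 and 24.1 TPM in starved livers (1.82 ± 0.25).

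The machinery that builds ribosomes rose almost as a block, with 89.3% called against 39.8% of all genes. Of 112 RNA polymerase I and ribosome biogenesis genes 100 rose and none fell in limma at adjusted p under 0.05 (94 and 0 after median-of-ratios scaling), and 93 to 100 rose when 1 library was left out. fbl, the methyltransferase of nucleolar RNA, had 179.7, 131 and 108 TPM in refed livers and 6.74, 11.8 and 14.7 TPM in starved livers (3.57 ± 0.32, adjusted p = 0.000353). gar1, a protein of the pseudouridylation complex, had 43.5, 42.1 and 36.9 TPM against 2.82, 2.99 and 2.94 TPM (3.41 ± 0.17, adjusted p = 0.000236), among the most even rises of the whole comparison. ncl, nucleolin, had 555, 399 and 319 TPM in refed livers and 37.4, 54.8 and 72.7 TPM in starved livers. polr1c, a subunit shared by RNA polymerases I and III, rose by 2.77 ± 0.22. rrn3, which recruits polymerase I to its promoter, was among the members that were not called, at 5.43, 6.18 and 4.8 TPM in refed livers and 5.81, 5.03 and 7.10 TPM in starved livers.

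The protein parts of the cytosolic ribosome did not follow. None of 76 ribosomal protein genes was called by limma, and none had an unadjusted p under 0.05; after median-of-ratios scaling 1 was called lower. Their median change was -0.26, below the median of all genes, and 69 of the 76 had a lower mean in refed livers. rps6 had 3029, 3508 and 3746 TPM in refed livers and 4412, 3206 and 4346 TPM in starved livers (-0.21 ± 0.21, adjusted p = 0.469). Summed over the list, ribosomal protein transcripts made up 155433, 181965 and 202569 TPM in refed livers and 247959, 174159 and 222707 TPM in starved livers, and these sums overlapped. The biogenesis list summed to 5592, 4429 and 3928 TPM in refed livers and to 1262, 1531 and 1686 TPM in starved livers, with a wide gap between the states.

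**Figure D4:**
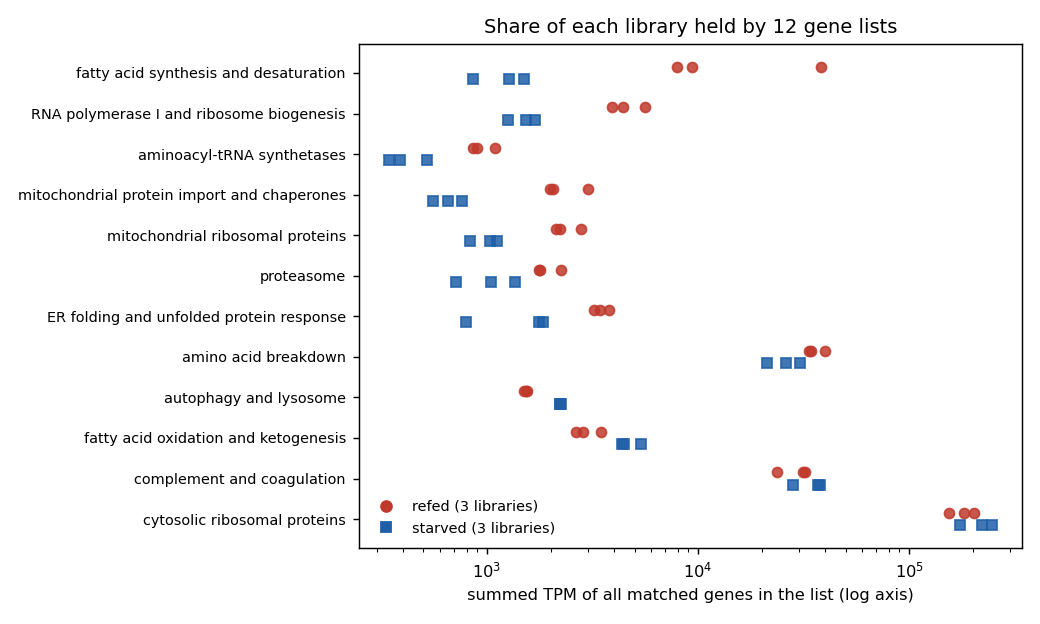
Summed TPM of 12 gene lists in each of the 3 refed and 3 starved Pachón livers, on a log axis. Refed livers stand above starved livers for ribosome biogenesis, aminoacyl-tRNA synthetases, mitochondrial import and fatty acid synthesis, below them for autophagy, and among them for ribosomal proteins.

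Other parts of the translation apparatus rose in a graded way. Of 21 aminoacyl-tRNA synthetases, which charge transfer RNAs, 18 rose and none fell, in TPM, after median-of-ratios scaling and without any 1 library. That was 85.7% called, against 39.8% of all genes in TPM. mars, the methionine enzyme, had 36.2, 29.9 and 25.2 TPM in refed livers and 1.4, 1.74 and 0.74 TPM in starved livers (3.79 ± 0.23, adjusted p = 0.000236), and aars, the alanine enzyme, 41.8, 36.6 and 42.0 TPM against 3.59, 4.05 and 2.50 TPM (3.25 ± 0.20). Of 66 translation factors 30 rose and none fell (28 and 3 after median-of-ratios scaling), 45.5% called against 39.8% of all genes. eif4bb, a cofactor of the initiation helicase, had 75.7, 58.2 and 56.3 TPM in refed livers and 4.26, 7.72 and 8.22 TPM in starved livers (3.09 ± 0.27). The a copy of this cofactor, the more abundant copy in starved livers, was not called. Its means were 20.8 TPM in refed and 19.58 TPM in starved livers (0.07 ± 0.20). eef2b, an elongation factor, was not called either, at 49.1, 55.5 and 64.1 TPM in refed livers and 51.2, 60.7 and 43.7 TPM in starved livers (0.12 ± 0.21, adjusted p = 0.684).

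Mitochondrial biogenesis genes rose more widely than the respiratory chain they serve. In the import and mitochondrial ribosome lists 79.2% and 89.4% were called, against 39.8% of all genes. Of 53 import and chaperone genes 42 rose and none fell (39 and 0 after median-of-ratios scaling), with a median of 1.81, and of 66 mitochondrial ribosomal proteins 59 rose and none fell (48 and 1), with a median of 1.35. hspd1 and hspe1 form the folding chamber of the mitochondrial matrix. hspd1 had 246, 101 and 126 TPM in refed livers and 6.08, 14.8 and 7.87 TPM in starved livers (3.88 ± 0.41, adjusted p = 0.000544), and hspe1 had 549, 337 and 329 TPM against 30.6, 34.0 and 35.3 TPM (3.53 ± 0.25, adjusted p = 0.000266). mrpl51, of the large mitochondrial subunit, had 66.5, 51.6 and 53.6 TPM in refed livers and 9.23, 12.6 and 11.8 TPM in starved livers (2.25 ± 0.21). Mitochondrial and cytosolic ribosomal proteins therefore differed in their counts of calls, 59 of 66 against 0 of 76.

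Of 80 nuclear genes of the respiratory chain and ATP synthase 29 rose and 1 fell (18 and 4 after median-of-ratios scaling). The 37.5% called was close to the 39.8% of all genes. There were 19 rises without refed replicate 1 and no fall without refed replicate 2. cycsb, cytochrome c, had 74.4, 35.8 and 31.5 TPM in refed livers against 3.61, 4.31 and 3.58 TPM in starved livers (3.22 ± 0.32, adjusted p = 0.000469). cox4i1, a core subunit of cytochrome oxidase, had 132.5, 106 and 120.1 TPM against 129, 129 and 106 TPM (-0.02 ± 0.20, adjusted p = 0.946), so that members of the same chain ranged from a large rise to no detectable step. Of 21 citrate cycle genes 10 rose and none fell (8 and 1 after median-of-ratios scaling), 47.6% called against 39.8% of all genes. Among those that rose were mdh1ab and ogdhb, by 2.58 ± 0.19 and 2.42 ± 0.18. pprc1, a coactivator of mitochondrial gene expression related to PGC-1 alpha, had 23.8, 19.9 and 11.6 TPM in refed livers and 0.10, 0.28 and 0.13 TPM in starved livers (4.00 ± 0.26, adjusted p = 0.000236). No other gene with a symbol was at or under 0.5 TPM in every starved liver and at or above 5 TPM in every refed one. pprc1 passed the level filter only through the refed livers, so its test is no separate support for the rise.

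The genes that make and fold secreted protein rose as well. Of 42 ER folding and unfolded protein response genes 29 rose and 1 fell (28 and 1 after median-of-ratios scaling), with a median of 1.32. That was 71.4% called, against 39.8% of all genes. hspa5, the ER chaperone BiP, had 568, 615 and 435 TPM in refed livers and 78.4, 86.3 and 16.7 TPM in starved livers. hyou1, its exchange factor, had 104, 102 and 73.5 TPM against 6.01, 7.01 and 1.19 TPM. Starved replicate 3 was the lowest liver for both, and the rises of 3.43 ± 0.57 and 4.23 ± 0.47 were 2.68 and 3.63 without it. xbp1, a transcription factor that raises ER capacity, had 105, 91.7 and 99.1 TPM in refed livers and 39.1, 53.3 and 25.98 TPM in starved livers (1.36 ± 0.28). The gene that fell was ddit3, the stress factor CHOP that acts when folding fails, with 2.43, 3.93 and 2.40 TPM in refed livers and 7.06, 11.6 and 10.6 TPM in starved livers (-1.45 ± 0.24, adjusted p = 0.00285).

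Of 69 genes for ER translocation and vesicle traffic 50 rose and none fell (35 and 0 after median-of-ratios scaling). That was 72.5% called, against 39.8% of all genes, with 33 rises without refed replicate 2. srp72, part of the particle that docks ribosomes on the ER, had 53.2, 49.8 and 47.6 TPM in refed livers and 7.48, 9.75 and 6.09 TPM in starved livers (2.56 ± 0.21, adjusted p = 0.000326). Cytosolic chaperones gave 16 rises and no fall of 32 (15 and 0), 50.0% called against 39.8% of all genes. HSP90a had 129.5, 77.5 and 66.7 TPM in refed livers and 4.45, 10.0 and 8.94 TPM in starved livers (3.39 ± 0.35), and its cochaperone stip1 rose by 2.58 ± 0.24. hspa8, the constitutive HSC70 and the most abundant of these, had 1199, 927 and 967 TPM in refed livers and 881, 1117 and 869 TPM in starved livers (0.11 ± 0.21, adjusted p = 0.71).

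Transcripts of proteasome genes and of autophagy genes moved in opposite directions. Of 45 proteasome genes 34 rose and none fell (25 and 0 after median-of-ratios scaling). That was 75.6% called, against 39.8% of all genes, and 25 to 31 rose when 1 library was left out. psmd12, a lid subunit, had 52.2, 44.0 and 41.7 TPM in refed livers and 6.95, 8.47 and 6.85 TPM in starved livers (2.48 ± 0.19, adjusted p = 0.000306). psme3, an activator cap, had 36.7, 21.7 and 18.4 TPM against 2.92, 3.79 and 3.8 TPM (2.51 ± 0.27). nfe2l1a, a copy of the transcription factor known in mammals to drive proteasome genes, went the other way, with 2.46, 3.04 and 1.52 TPM in refed livers and 16.4, 22.9 and 27.21 TPM in starved livers (-2.79 ± 0.26, adjusted p = 0.000387). In a separate list of 16 tested ubiquitin ligase and atrophy genes 6 fell and 1 rose (6 and 1 after median-of-ratios scaling). That was 43.8% called against 39.8% of all genes, and 2 to 5 fell when 1 library was left out.

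Of 83 autophagy and lysosome genes 33 fell and 8 rose (39 and 6 after median-of-ratios scaling), and 24 to 30 fell when 1 library was left out. The 49.4% called stood against 39.8% of all genes, of which 10.5% fell. The falls included the early steps of autophagosome formation. map1lc3b, the LC3 protein of the autophagosome membrane, had 4.81, 4.51 and 4.23 TPM in refed livers and 22.4, 17.6 and 19.0 TPM in starved livers (-1.90 ± 0.18, adjusted p = 0.000387). ATG2A, a lipid transfer protein that feeds the growing membrane, had 1.86, 2.72 and 1.52 TPM against 10.6, 9.27 and 12.3 TPM (-1.96 ± 0.21). The initiating kinase complex was represented by atg101, at 5.37, 9.63 and 7.09 TPM in refed livers and 36.9, 27.8 and 28.4 TPM in starved livers, and by ulk1b, at 0.08, 0.35 and 0.21 TPM against 2.13, 3.07 and 2.59 TPM. They fell by 1.96 ± 0.24 and 1.56 ± 0.17. ulk1b passed the level filter only through the starved livers, so its test is no separate support for the fall. ATG14 and WDR45, which act at the next steps, fell by 1.39 ± 0.20 and 1.64 ± 0.23.

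The lysosomal members and the cargo receptor named next were not called. ctsd, cathepsin D, had 60.9, 38.3 and 37.6 TPM in refed livers and 52.2, 57.4 and 36.2 TPM in starved livers (-0.10 ± 0.27, adjusted p = 0.791), and the receptor sqstm1 differed by 0.50 ± 0.24 (adjusted p = 0.134). lamp2, of the lysosomal membrane, differed by 0.22 ± 0.29 (adjusted p = 0.588). Over the whole list the transcripts summed to 1547, 1535 and 1495 TPM in refed livers and to 2248, 2217 and 2225 TPM in starved livers, a gap wide against the spread within each state.

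Among 51 lipogenic and metabolic transcription regulators 7 rose and 9 fell (4 and 12 after median-of-ratios scaling). The 31.4% called was below the 39.8% of all genes, and there were 5 falls without starved replicate 2 and 4 without starved replicate 3. Nuclear receptors that sense fatty acids and bile acids split. pparab, a copy of the receptor that drives fatty acid oxidation, had 38.3, 11.9 and 24.3 TPM in refed livers and 1.56, 3.71 and 2.65 TPM in starved livers (2.73 ± 0.41, adjusted p = 0.00183). The a copy of this receptor, the more abundant copy in starved livers, was not called. Its means were 4.46 TPM in refed and 7.58 TPM in starved livers (-0.7 ± 0.466). The related receptor pparda had 4.66, 9.17 and 6.84 TPM in refed livers and 19.9, 19.99 and 19.1 TPM in starved livers (-1.43 ± 0.24, adjusted p = 0.00279), and nr1h4, the bile acid receptor FXR, had 5.18, 13.6 and 9.38 TPM against 34.7, 27.3 and 29.4 TPM (-1.68 ± 0.31). PPARG, the receptor named in the title of the series, had 52.2, 67.6 and 73.7 TPM in refed livers and 29.2, 45.3 and 73.5 TPM in starved livers. Its states overlapped, and the difference of 0.46 ± 0.34 was not called (adjusted p = 0.313). mlxipl, the carbohydrate-responsive factor ChREBP, differed by 0.29 ± 0.32 (adjusted p = 0.51), and nr1h3, the oxysterol receptor, by -0.01 ± 0.24 (adjusted p = 0.977).

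Of 41 immediate early and stress response factors 13 fell and 2 rose (14 and 2 after median-of-ratios scaling), with 8 falls without refed replicate 2, starved replicate 2 or starved replicate 3. The 36.6% called was below the 39.8% of all genes, of which 10.5% fell. klf11b had 18.2, 31.7 and 25.3 TPM in refed livers and 84.8, 139.5 and 113 TPM in starved livers (-2.13 ± 0.28, adjusted p = 0.00109). junbb and fosab, members of the AP-1 family, had 67.0, 139.5 and 186 TPM and 1.1, 7.8 and 12.04 TPM in refed livers, against 355, 447 and 372 TPM and 21.1, 98.8 and 72.8 TPM in starved livers. They fell by 1.69 ± 0.37 and 3.13 ± 0.76, and fosab by 2.35 without refed replicate 1 and by 3.79 without starved replicate 1. egr1, another immediate early gene, was not called (0.51 ± 0.52, adjusted p = 0.464).

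The CCAAT-binding factors, of the same list, split. cebpa, which maintains the hepatocyte programme, had 217, 67.2 and 58.8 TPM in refed livers and 1.18, 8.85 and 4.68 TPM in starved livers (4.28 ± 0.64, adjusted p = 0.0018), and its rise was 3.69 without refed replicate 1 and 3.68 without starved replicate 1. cebpb, an acute and fasting-responsive member, had 70.4, 109.6 and 136 TPM against 219, 372 and 337 TPM, a fall of 1.56 ± 0.32 (adjusted p = 0.00632). Neither gene's states overlapped.

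Cell cycle genes were called in both directions. Of 20 tested 8 rose and 3 fell (8 and 5 after median-of-ratios scaling), 55.0% called against 39.8% of all genes, with 4 rises without any 1 of the refed libraries. cdk4, a kinase of cell cycle entry, had 19.9, 14.4 and 11.96 TPM in refed livers and 1.92, 2.01 and 2.35 TPM in starved livers (2.38 ± 0.21, adjusted p = 0.000373), whereas mcm7, a subunit of the replicative helicase, had 2.80, 2.89 and 2.99 TPM against 7.58, 10.7 and 13.8 TPM (-1.55 ± 0.22, adjusted p = 0.00155). Of 36 clock genes 8 rose and 5 fell (4 and 8 after median-of-ratios scaling), or 36.1% called, and leaving out 1 library left 3 to 8 rises and 1 to 5 falls. nr1d1, a repressor of the clock loop, fell by 1.07 ± 0.35 (adjusted p = 0.044), a call lost without refed replicate 1 or 2 or starved replicate 2 or 3.

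Complement, coagulation and plasma carrier genes had few calls. The shares were 2.4% for complement and coagulation and 10.5% for acute phase and plasma carriers, against 39.8% of all genes. Of 41 complement and coagulation genes none rose and 1, masp1, fell (0 and 5 after median-of-ratios scaling), and only 3 had an unadjusted p under 0.05 in limma. masp1, which starts the lectin route of complement, had 64.2, 69.7 and 82.3 TPM in refed livers and 150.2, 109.8 and 108 TPM in starved livers. Its call was lost without any 1 of the refed libraries or starved replicate 1, and 4 genes of the list fell without starved replicate 3. fgb, a fibrinogen chain, had 3830.3, 5458 and 4761 TPM against 5465, 4439 and 3928 TPM, with full overlap (0.02 ± 0.22, adjusted p = 0.949). Among 19 acute phase and plasma carriers 2 rose (2 higher and 1 lower after median-of-ratios scaling), and 1 rose without refed replicate 2 or 3 or starved replicate 3. ttr, which carries thyroid hormone, had 1015, 1343 and 1225 TPM in refed livers and 382, 829 and 509.6 TPM in starved livers, without overlap (1.12 ± 0.31, adjusted p = 0.0217), a call lost without refed replicate 2 or 3 or starved replicate 3.

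Bony fish carry duplicated copies of many genes, labelled a and b, and the copies could be set side by side within each liver. Of 528 pairs with both copies tested, 91 had both called: 60 rose together, 12 fell together and 19 moved in opposite directions (26 opposite of 91 after median-of-ratios scaling, 15 of them in both). Of all tested genes 39.8% were called, and 73.6% of calls were rises, so many pairs would be called together, mostly as rises, even if copies were unrelated. Whether these counts differ from those of unrelated genes was not tested. In 15 of the 19 opposite pairs the copy that fell was the more abundant one in starved livers. The pairs were picked by calls that use the same starved values, which favour a high starved level in the copy that fell. This count is therefore no separate result about gene copies. Reads of 50 bases can fit both copies of a close pair, and how the authors' software shared them out was not tested.

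The nuclear export receptor exchanged its copies. xpo1a had 24.7, 18.2 and 22.9 TPM in refed livers and 2.21, 1.92 and 1.41 TPM in starved livers, whereas xpo1b had 1.52, 3.43 and 5.87 TPM in refed livers and 27.8, 14.7 and 17.3 TPM in starved livers. xpo1a rose by 3.01 ± 0.20 (adjusted p = 0.000236) and xpo1b fell by 2.25 ± 0.39 (adjusted p = 0.00327). The copies of the stress kinase p38 did the same, mapk14a with 26.9, 27.4 and 22.2 TPM in refed livers and 8.24, 8.53 and 8.43 TPM in starved livers (1.49 ± 0.18), and mapk14b with 2.74, 5.16 and 3.31 TPM against 15.7, 12.8 and 13.4 TPM (-1.69 ± 0.23). In each pair the dominant copy in refed livers was the minor copy in starved livers.

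The low-density lipoprotein receptor and a mitochondrial carrier of adenine nucleotides also split. ldlra had 57.3, 74.5 and 199.6 TPM in refed livers and 306, 430.5 and 363 TPM in starved livers (-1.92 ± 0.44, adjusted p = 0.0108). ldlrb had 70.9, 3.03 and 7.17 TPM against 0.68, 0.56 and 0.78 TPM (3.00 ± 0.91, adjusted p = 0.0327). Its call was lost without any 1 of the starved libraries and could not be tested without a refed one. ldlrb passed the level filter only through the refed livers. slc25a25a had 128, 99.9 and 238 TPM in refed livers and 346, 850 and 676 TPM in starved livers, and slc25a25b 6.51, 4.99 and 3.94 TPM against 1.25, 0.99 and 0.77 TPM. They moved by -2.0 ± 0.42 and 1.60 ± 0.20. Here the copy that rose stayed below the one that fell in each liver except refed replicate 1 for ldlr.

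**Figure D5:**
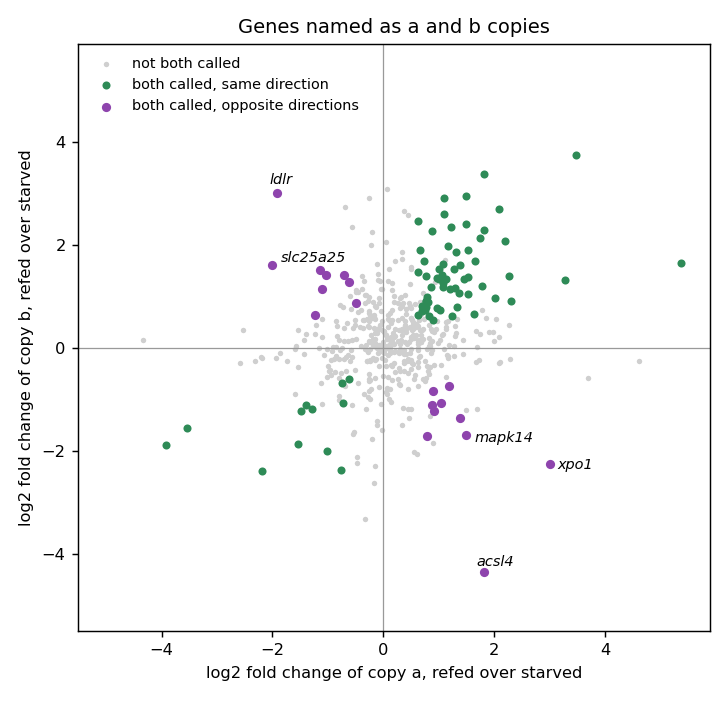
Log2 fold change (refed minus starved, TPM) of the a copy against that of the b copy for 528 gene pairs, 1 point per pair, with pairs called for both copies in colour. Most coloured points lie in the upper right, and xpo1, mapk14, acsl4, ldlr and slc25a25 stand out in the quadrants of opposite change.

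The response of Pachón livers was tested against that of surface livers in a fit over all 12 RNA-seq libraries. Of 13157 genes with at least 1 TPM in 3 or more of the 12 libraries, 9 (0.0684%) differed in their response. For nearly all genes the fit gave no difference past the threshold at this number of livers. Some of the 9 passed the level filter only through the group where they were high, and these are named in a later section. The count rested on single libraries: it was 0 without Pachón refed replicate 1 or 2, Pachón starved replicate 1 or 3 or surface refed replicate 2, and 2 without Pachón refed replicate 3 or surface starved replicate 3. It was 4 without Pachón starved replicate 2, 5 without surface starved replicate 2, 15 without surface refed replicate 1 and 52 without surface starved replicate 1. For fasn the difference, Pachón minus surface, was 3.92 ± 1.13 (adjusted p = 0.174). triap1, a mitochondrial intermembrane protein that guards against cell death, was among the 9: it had 32.6, 21.7 and 24.1 TPM in refed and 4.62, 6.12 and 4.34 TPM in starved Pachón livers, against 12.9, 9.24 and 10.7 TPM in refed and 9.27, 12.4 and 15.1 TPM in starved surface livers. Its response was larger in Pachón by 2.30 ± 0.33 (adjusted p = 0.0371). Only Pachón livers showed separate states for this gene.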

How the data were processed

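Liver polyA RNA was sequenced in 3 libraries from refed and 3 from starved Pachón fish as single reads of 50 bases from a stranded kit, per the labels' protocols. The authors deposited 1 table of RSEM TPM values, which are shares of each library corrected for transcript length; STAR 2.6.1c, RSEM, Bowtie2 and bcl2fastq 2.18 are named per the submitters' processing notes, without their settings, and the genome build is not given in the sources used here. TPM keep no depth, so no counting error can be given, and a count model does not apply. Genes with at least 1 TPM in 3 of the 6 libraries entered a limma fit of 2 group means (version 3.58.1, R 4.3.3) on log2(TPM + 1), with 4 residual degrees of freedom, variances moderated along their trend with the mean, and Benjamini-Hochberg adjustment. Simulated data with 11987 genes held 100 changes of 2 log2 units and 100 of 1 unit. Of these, 97 and 32 were called in the right direction, and 13 unchanged genes were called too. Adjusted p depends on the share of genes that change, and 39.8% of genes were called in the livers. The simulated rates therefore do not give the power of this fit. The responses of both populations were compared by an interaction contrast over 12 libraries. The members, the gene lists and the tests were chosen with earlier results of these data known. Named genes followed a rule: the most changed called genes (15 each way), those with the largest change in mean TPM (12 each way), up to 6 called genes with the smallest p in each of 41 lists, genes at or under 0.5 TPM in one state and at or above 5 TPM in the other, and a fixed set; of the 274 genes it gives 89 are named and the others appear only in counts, and of the 131 genes named by symbol 42 fall outside it and were chosen after their values were seen, as examples of a role in their list. Whether the replicate numbers pair livers was checked: same-numbered livers deviated from their group means with correlations of -0.14, -0.25 and -0.05. The value was 0.20 for refed replicate 1 and starved replicate 2. No pairing by number was seen, but 3 values from groups of 3 cannot exclude one, and a fit with a replicate block is among the alternatives. The labels do not say that the livers came from separate tanks or that each library is 1 fish, so p-values measure the spread between these 6 libraries. Alternatives in scaling, pseudocount, filter, model and libraries left out are described after the results. Symbols were taken from the deposited table.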

Additional observations from a re-analysis of the deposited data

Results flagged for a closer look

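For 9 of 13157 genes the response to the meal differed between Pachón and surface livers in limma at adjusted p under 0.05, and these are given here as values. NEK3, a kinase of the NIMA family, had 4.72, 7.18 and 4.56 TPM in refed and 1.77, 2.14 and 2.74 TPM in starved Pachón livers, against 0.34, 0.37 and 0.23 TPM in refed and 2.25, 2.06 and 2.08 TPM in starved surface livers. The difference between the responses, Pachón minus surface, was 2.25 ± 0.26 on the log2 scale (adjusted p = 0.0346), and refed and starved livers did not overlap in either population. For triap1, described above, the difference was 2.30 ± 0.33.

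znf326, a zinc finger protein, had 5.47, 3.29 and 4.04 TPM in refed and 0.38, 0.18 and 0.12 TPM in starved Pachón livers, and stayed between 0.03 and 0.82 TPM in all 6 surface livers. The difference was 2.31 ± 0.33 (adjusted p = 0.0371).

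The other 6 carry no symbol. ENSAMXG00000039180 differed by 3.97 ± 0.52: it stayed at or under 0.31 TPM in Pachón livers, whereas refed surface livers had 0.00, 0.05 and 0.35 TPM and starved surface livers 43.5, 10.97 and 17.1 TPM. ENSAMXG00000038049 differed by 2.82 ± 0.42 and ENSAMXG00000030765 by 2.01 ± 0.29, and both were also highest in starved surface livers. ENSAMXG00000030765 was listed at 0 in all 6 Pachón livers. ENSAMXG00000029657 differed by 1.96 ± 0.26. ENSAMXG00000035399 differed by -1.91 ± 0.26 and was listed at 0 in every refed liver, with 4.22, 4.39 and 3.75 TPM in starved Pachón livers. ENSAMXG00000043828 differed by 1.55 ± 0.21, with 6.83, 9.06 and 8.45 TPM in refed and 1.90, 2.43 and 1.98 TPM in starved Pachón livers. It was listed at 0 in all 6 surface livers, so its difference is the Pachón change alone. The adjusted p of these 6 was 0.0371 or 0.0434. ENSAMXG00000030765 and ENSAMXG00000039180 reached 1 TPM only in starved surface livers, ENSAMXG00000035399 only in starved Pachón livers and znf326 only in refed Pachón livers. Each passed the filter only through the group where it was high, so its test is no separate support for a difference between the populations.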

How the results depend on the processing

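The number of genes called lower was 1257 in TPM, 1940 after median-of-ratios scaling, 2229 after quantile normalization and 747 with at least 5 TPM in 3 libraries. Rises made up 57.6% of calls after median-of-ratios scaling, 51.4% after quantile normalization and 73.6% in TPM. The median change of 0.21 was 0.022 after median-of-ratios scaling, turned to -0.039 after quantile normalization, and was 0.019 with no filter and 0.326 with at least 5 TPM; the cause was not tested. Leaving out 1 library gave 812 to 1104 lower calls. The count of genes whose response differed from that of surface fish was the least stable: 9 in TPM, 13 after median-of-ratios scaling, 18 after quantile normalization, 1 after rescaling without the 20 most abundant genes, 1 with a pseudocount of 0.1 TPM, 19 with a pseudocount of 5 TPM, 0 with at least 5 TPM in 3 libraries, and 0 to 52 when 1 library was left out (52 without surface starved replicate 1). The replicate block gave 3841 calls (2903 higher, 938 lower) against 4766, and 0 genes for the difference from surface fish. Leaving out replicate 1 of both states, an alternative chosen after seeing the data, gave 2851 higher and 899 lower calls. Other totals of calls stayed within 1.5 times of the main ones. Of 316 single genes recomputed, those the naming rule gives and those the text adds, 276 were called, and none of these changed direction. Calls were lost by 11 genes after median-of-ratios scaling, 25 in the fit of all 12 libraries and 13 to 25 when 1 library was left out. Some of the 316 no longer passed the level filter when a library was left out. They were not tested there and are not counted as lost. Depth is unknown in TPM, so no level near 1 TPM can be told from counting error. Antisense overlaps and reads shared between gene copies were not resolved.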
